A study of Mus musculus with 15 samples.

Results

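Klhl11 divided the 15 mammary tumors into 5 with a high level and 10 with a low one, with no tumor in between. The members were chosen by their measured Klhl11 level. It was read from the only transcript cluster that the array annotation assigns to Klhl11 alone (cluster 17269516), and a tumor was called high when its log2 array value was above 9.5. All tumors came from ErbB2KI mice, an Erbb2 knock-in model of breast cancer, in which Ctnnb1, the gene of beta-catenin, was targeted for deletion in the mammary epithelium. They were frozen at end burden and carried Ctnnb1 as wt/wt (WT), fl/wt (HET) or fl/fl (HOM), 5 tumors of each genotype. The high tumors were the tumor labelled WT 5 and the tumors HOM 1 to HOM 4. The low tumors were WT 1 to WT 4, all 5 HET tumors and the tumor labelled HOM 5. The labels give no Cre driver, strain or age, and nothing in them states that the 5 tumors of each genotype are from different mice. The p-values therefore measure the spread between these tumors only.

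Klhl11 encodes a BTB-Kelch protein, one of the adaptors that bring substrates to cullin 3 ubiquitin ligases. On mouse chromosome 11 it lies in a dense run of unrelated genes, between Klhl10 and Acly and a few genes from Jup. Jup encodes plakoglobin, the close relative of beta-catenin that links desmosomal cadherins to keratin filaments and can also bind classical cadherins. Acly encodes ATP citrate lyase, which turns citrate into the cytosolic acetyl-CoA used for fatty acid and sterol synthesis and for histone acetylation. The type I keratin genes lie on one side of Jup and the transcription factor genes Stat5a, Stat5b and Stat3 on the other.

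The start regions of 4 of these genes are shown because the genes lie close together, were high in the same tumors and belong to different pathways. Each line holds the RefSeq promoter window of assembly GRCm38.p6, from 250 bases before to 50 bases after the transcription start, read in the gene's own direction. Capitals mark the GC box GGGCGG or its reverse complement CCGCCC. The windows are chr11:100397741-100398040 on the minus strand for Jup, chr11:100472733-100473032 on the minus strand for Klhl11, chr11:100527951-100528250 on the minus strand for Acly and chr11:100574689-100574988 on the plus strand for Cnp.
Jup promoter: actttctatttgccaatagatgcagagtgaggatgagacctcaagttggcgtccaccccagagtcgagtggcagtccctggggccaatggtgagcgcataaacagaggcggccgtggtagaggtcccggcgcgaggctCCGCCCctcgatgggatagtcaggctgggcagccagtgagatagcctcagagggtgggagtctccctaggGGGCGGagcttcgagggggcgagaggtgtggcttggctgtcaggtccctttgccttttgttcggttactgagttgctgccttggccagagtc
Klhl11 promoter: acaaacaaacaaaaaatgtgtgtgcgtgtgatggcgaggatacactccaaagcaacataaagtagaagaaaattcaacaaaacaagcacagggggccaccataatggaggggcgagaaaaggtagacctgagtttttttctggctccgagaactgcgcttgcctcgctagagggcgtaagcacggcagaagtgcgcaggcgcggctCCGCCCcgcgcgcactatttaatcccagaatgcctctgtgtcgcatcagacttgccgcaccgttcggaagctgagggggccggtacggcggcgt
Acly promoter: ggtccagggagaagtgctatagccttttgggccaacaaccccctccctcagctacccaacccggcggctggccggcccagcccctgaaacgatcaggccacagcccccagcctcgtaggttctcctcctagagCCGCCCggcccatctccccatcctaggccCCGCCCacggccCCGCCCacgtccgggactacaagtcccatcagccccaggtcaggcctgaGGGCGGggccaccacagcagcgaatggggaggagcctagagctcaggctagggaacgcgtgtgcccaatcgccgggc
Cnp promoter: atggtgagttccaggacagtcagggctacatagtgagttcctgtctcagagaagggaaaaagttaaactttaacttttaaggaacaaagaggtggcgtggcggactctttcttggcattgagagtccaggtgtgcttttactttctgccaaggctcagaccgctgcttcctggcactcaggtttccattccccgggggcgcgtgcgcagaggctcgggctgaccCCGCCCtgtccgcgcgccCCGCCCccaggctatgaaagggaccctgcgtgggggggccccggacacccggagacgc
The GC box occurred 2 times in the Jup window, 1 time in that of Klhl11, 4 times in that of Acly and 2 times in that of Cnp. RefSeq windows were found for 8 of the 10 genes from Hap1 to Dnajc7, in 11 windows, and 6 of the 11 held a GC box, against 35.7% of all 32851 mouse promoter windows. The letters CTTTGA or TCAAAG, the core read by Tcf and Lef factors, were in 0 of the 11 windows and in 16.0% of all. CCAAT or ATTGG was in 3 of the 11 and in 37.4% of all. Both strands were searched, and matches of different motifs may overlap. The windows of Nt5c3b and Klhl10 shared 215 bases on opposite strands.

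The Klhl11 level was 10.52 in WT 5, 10.62 in HOM 1, 10.37 in HOM 2, 11.12 in HOM 3 and 10.36 in HOM 4. Among the low tumors it ran from 7.57 in HOM 5 to 8.43 in HET 1, with a median of 7.99. The values closest to the threshold were thus those of HOM 4 above it and of HET 1 below it. The mean was 10.60 ± 0.31 (SD, n = 5) in the high tumors and 8.0 ± 0.30 (SD, n = 10) in the low ones, a difference of 2.60 on the log2 scale or 6.06-fold. These values chose the groups and are a description, as are all values of genes around Jup below, which were known when the split was proposed.

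**Figure D1:**
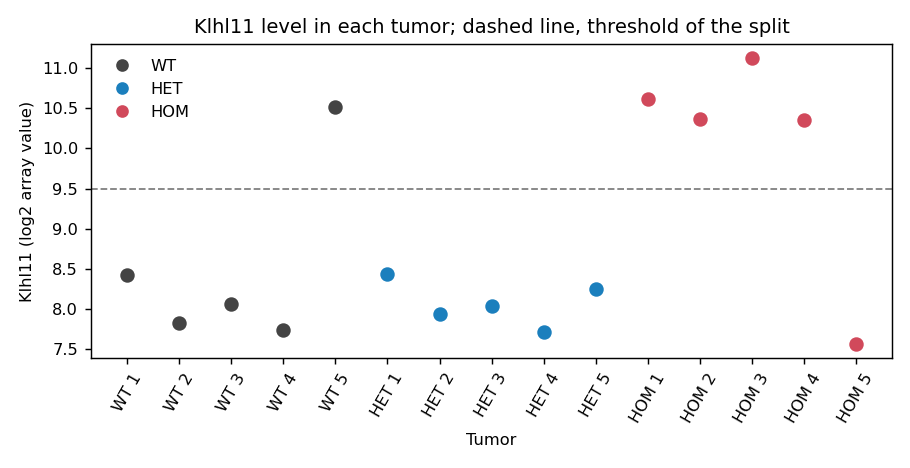
Log2 array value of Klhl11 in each of the 15 tumors, coloured by Ctnnb1 genotype, with the threshold of 9.5 as a dashed line. The 5 tumors above the line sit between 10.36 and 11.12 and the 10 tumors below it between 7.57 and 8.43.

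Genotype was not used to divide the tumors. Of the WT tumors 1 of 5 was high, of the HET tumors 0 of 5 and of the HOM tumors 4 of 5. Mean Klhl11 reached 10.01 ± 1.40 in HOM, against 8.51 ± 1.15 in WT and 8.08 ± 0.28 in HET (SD, n = 5 each). In two-sided exact permutation tests over the 252 assignments of tumors, whose smallest possible p is 0.00794, HOM exceeded HET by 1.93 with p = 0.0476, or 0.143 after adjustment over the 3 pairs. The exact permutation p was 0.167 for HOM minus WT (1.49, adjusted 0.25) and 0.627 for HET minus WT (-0.44, adjusted 0.627). No pair of genotypes passed the threshold of 0.05 after adjustment. Klhl11 was chosen with earlier results of these data known, so these p-values are no independent evidence about genotype. The tumor labelled HOM 5 is the HOM tumor with low Klhl11. Leaving it out raised HOM minus WT to 2.10 and HOM minus HET to 2.54, as leaving out the lowest value must, so no p is given for these.

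Ctnnb1 bears on the labels of those tumors. Its level (cluster 17523257) was 11.71 to 12.10 in WT 1 to WT 4 but 11.22 in the tumor labelled WT 5. It was 11.15 to 11.58 in HOM 1 to HOM 4 but 12.01 in the tumor labelled HOM 5. Which part of the gene the probes read was not known, so these values need not report the deletion itself. The HET tumors, all low in Klhl11, read 11.22 to 11.66. A low Ctnnb1 level was thus particular neither to HOM tumors nor to high Klhl11. For WT 5 and HOM 5 alike, the tumor that differed from its genotype in Klhl11 also differed in Ctnnb1. Without these 2 tumors the high side holds HOM tumors alone, and genotype and the Klhl11 split cannot be told apart.

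The genes beside Klhl11 on both sides were high in the same tumors. From Hap1 to Dnajc7, 10 consecutive measured genes each had a mean more than 1 log2 unit higher in the high tumors, with a median difference of 2.13 and a range of 1.04 to 2.60. The bounds of this run were chosen after its values were seen. In 7 of the 10, all 5 high tumors lay above all 10 low tumors. One of the 7 is Klhl11, which the threshold separates by construction, and another is Klhl10, which was below the array median in all low tumors. Without these genes the count was 5 of 8. Such separation in this direction was seen in 0.169% of the 14243 genes tested, and in 0.126% of the 22180 genes measured. Nothing is read from that contrast, since the run adjoins the gene that made the split. Acly was 13.14 in WT 5, 13.15 in HOM 1, 12.94 in HOM 2, 13.44 in HOM 3 and 12.85 in HOM 4. Its level in the low tumors was 10.42 at the lowest, 10.77 at the median and 12.46 at the highest. The groups did not overlap, but the low tumor WT 1 at 12.46 stood well above the next, HET 3 at 11.38. The difference was 2.11, or 4.32-fold.

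Jup was close to equal in the high tumors, at 12.98 in WT 5, 12.98 in HOM 1, 12.90 in HOM 2, 12.97 in HOM 3 and 12.79 in HOM 4. In the low tumors it ranged from 9.94 in HET 1 over a median of 11.51 to 12.98 in HET 3. HET 3 thus reached the high tumors, and Jup, unlike Klhl11, did not separate the sides. The difference of means was 1.35, or 2.55-fold.

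Cnp encodes a cyclic nucleotide phosphodiesterase best known from myelin. It stood at 11.03 in WT 5, 10.72 in HOM 1, 10.71 in HOM 2, 11.16 in HOM 3 and 11.31 in HOM 4. The low tumors lay between 8.12 and 9.53 with a median of 8.72, so all were below the high tumors, by 2.15 on average. P3h4 encodes an endoplasmic reticulum protein needed for collagen lysine hydroxylation. Its values were 11.62, 11.37, 11.72, 11.80 and 11.16 in WT 5 and HOM 1 to HOM 4, against 8.53 to 10.98 (median 9.11) in the low tumors. The highest low tumor was again HET 3, and the difference was 2.24.

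Hap1, whose product binds huntingtin and serves vesicle transport, was 9.93, 9.71, 9.30, 10.21 and 10.48 in the same 5 tumors. The low tumors ran from 6.43 to 9.22 with a median of 7.32, HET 3 being the highest and just below HOM 2. Nt5c3b, a cytosolic nucleotidase gene, was 10.66, 10.65, 10.75, 10.84 and 10.48, clear of the low tumors at 7.99 to 9.46 (median 8.71). Klhl10, a BTB-Kelch gene known for its role in spermatids, was 6.60, 6.52, 6.51, 6.42 and 6.10 against 5.24 to 5.57. All 10 low tumors had Klhl10 below their array's median of all clusters, so it entered the test through the high tumors alone and its low level may not be measurable.

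Ttc25 and Dnajc7, near the far end of the run, overlapped between the sides. Ttc25, a gene of motile cilia, was 8.59, 8.75, 7.76, 9.11 and 8.49 in WT 5 and HOM 1 to HOM 4. In the low tumors it was 5.21 to 8.20 with a median of 5.97. WT 1 at 8.20 exceeded HOM 2, and HET 5 at 7.50 came close. Dnajc7, a heat shock co-chaperone gene, was 10.41 in WT 5, 9.24 in HOM 1, 8.77 in HOM 2, 10.91 in HOM 3 and 10.42 in HOM 4. Its low tumors reached 8.95 from 7.99, with a median of 8.37. HOM 2 was therefore within the low range, HOM 1 just above it, and the other high tumors well above.

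**Figure D2:**
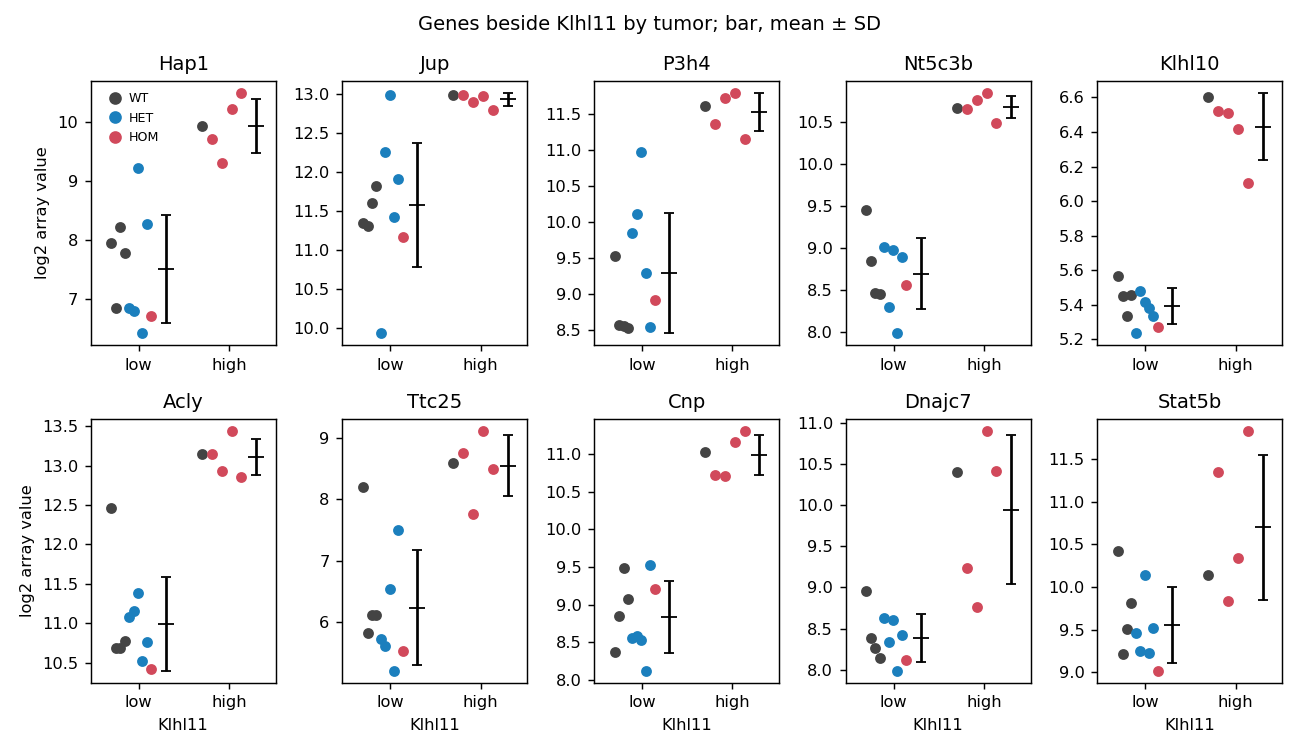
Log2 array values of single genes around Klhl11, with a point for each tumor coloured by genotype, for the 10 tumors with low and the 5 with high Klhl11. For Acly and Cnp all high tumors sit above all low tumors, while for Jup the low tumor HET 3 at 12.98 reaches the high ones.

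Counted tumor by tumor, the run was raised nearly whole on the high side. A gene was counted as raised in a tumor when its value exceeded the median of the low tumors by more than 1. The low tumors thus set the reference, and the share of all genes passing this cut in each tumor was not determined. By this count 10 of 10 genes were raised in WT 5 and in HOM 3. In HOM 1 and in HOM 2 the count was 9, Dnajc7 being the exception, and in HOM 4 it was 9 with Klhl10 as the exception. Among the low tumors HET 3 had 3 raised genes, Hap1, Jup and P3h4, which stand next to each other. WT 1 had 2, Acly and Ttc25, which are also adjacent. HET 2 had P3h4 alone and HET 5 Ttc25 alone, and the other 6 low tumors had 0.

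Beyond Dnajc7 the high tumors differed from each other. Of the 16 measured genes from Zfp385c to Coasy, 5 were raised in HOM 1, 4 in HOM 4, 2 in HOM 3 and 0 in WT 5 and in HOM 2. Among the low tumors the count was 2 in WT 1 (Stat5a and Coasy), 2 in HET 1 (Cavin1 and Naglu), 1 in WT 3 and in HET 5 (Dhx58 in both) and 0 in the other 6. The count in HOM 3 was thus matched on the low side, while those of HOM 1 and HOM 4 were higher. Of the 16 genes 13 passed the filter on low values. With no share of all genes at hand, these counts are a description. In HOM 1 the raised genes were Ghdc, Stat5b, Stat5a, Naglu and Coasy, with Stat5a at 11.22. In HOM 4 they were Dhx58, Kat2a, Ghdc and Stat5b, with Stat5b at 11.83 and Kat2a, a histone acetyltransferase gene, at 11.65. In HOM 3 they were Zfp385c and Stat5a. Stat5a and Stat5b carry the prolactin signal in mammary cells. Stat5a differed by 1.09 between the means of the sides and Stat5b by 1.14, but both overlapped: the low tumor WT 1 had Stat5a at 10.31 and Stat5b at 10.42. Stat3 differed by 0.43.

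**Figure D3:**
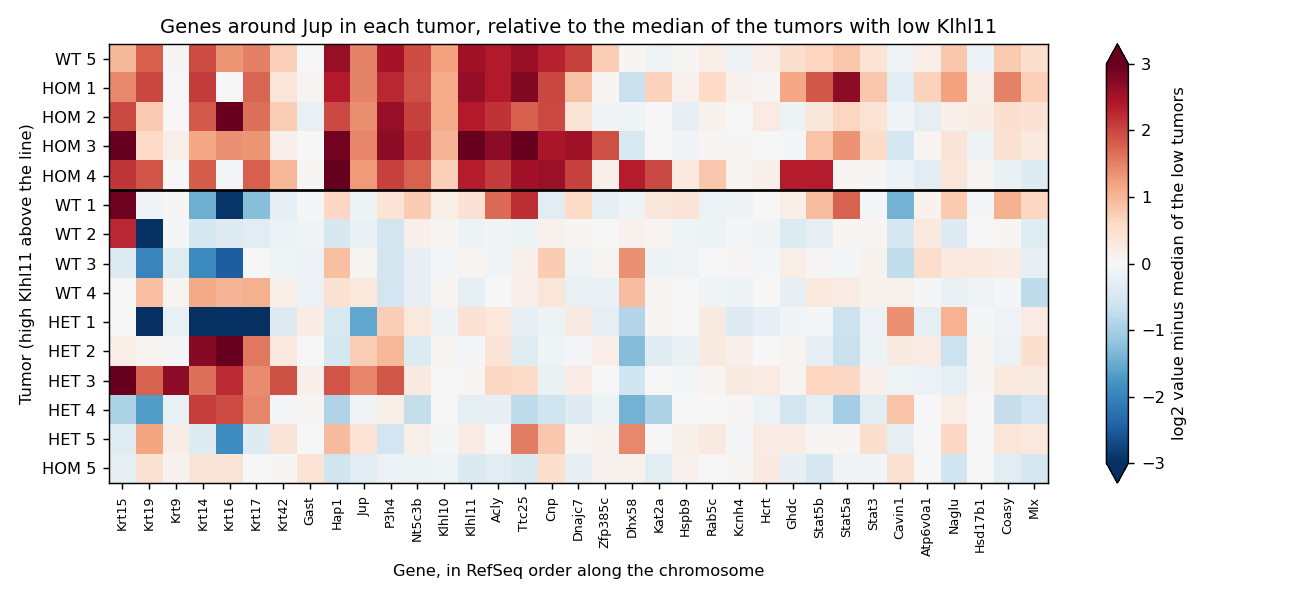
Values of genes in RefSeq order around Jup (columns) in each tumor (rows), as the log2 value minus the median of the 10 low tumors, with the 5 high tumors above the black line. The block from Hap1 to Cnp is raised in all 5 high tumors, less so for Klhl10 in HOM 4, and from Dnajc7 on the high tumors differ from each other.

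On the other side of Jup, the 8 measured genes ending next to Hap1, which are keratin genes and the gastrin gene Gast, had a median difference of 1.22. No gene of these 8 separated the sides. Krt14, the basal keratin, was 12.66, 12.81, 12.55, 11.86 and 12.53 in WT 5 and HOM 1 to HOM 4, against 7.16 to 13.43 (median 10.71) in the low tumors. Krt17 was 12.71 to 13.17 in the high tumors and 7.29 to 12.97 in the low ones. Krt19, a simple-epithelium keratin, was 10.65 to 12.04 against 6.43 to 11.82. The high tumors covered a narrower span than the low tumors in all of these, with HET 1 lowest for Krt14 and Krt17 and WT 2 for Krt19. The 21 genes further out on that side had a median difference of -0.11, and 0 of them differed by more than 1.

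Taking the 30 measured genes on each side of Jup with Jup itself, 44 of 61 passed the filter on low values. The median difference was 0.09 over all 61 and 0.48 over the 44, against 0.02 over all tested genes. A difference above 1 was seen in 17 of the 44 and in 1.14% of all tested genes. A limma test with an adjusted p under 0.05 called 7 of the 44 higher in the high tumors, beside 0.0843% of all tested genes. Klhl11 and Klhl10 are among the 7, and without them the count was 5 of 42. The calls are no evidence about these genes, since Klhl11 set the split and the others adjoin it.

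The rest of chromosome 11 was compared next. In the other 1141 tested genes of the chromosome the median difference was 0.00, limma called 0 genes higher or lower, and 60 had an unadjusted p under 0.05. Over all 14243 tested genes limma called 12 higher and 0 lower, and 834 had an unadjusted p under 0.05. Nothing particular to the chromosome is read from these counts. Separation of all high from all low tumors was seen in 0 of the 1141. Among all tested genes it was seen in 0.169% with the high tumors above and in 0.0351% with them below. Differences above 1 were found in 14 of the 1141 and below -1 in 3, against 1.14% and 0.267% of all tested genes. Runs of 7 consecutive tested genes were taken over the genome, 14043 in number. Their highest median difference was 2.15, for the run from P3h4 to Cnp. That run holds Klhl11, which made the split, so nothing is read from its rank. The highest run outside the neighbourhood, from Ctu1 to Klk9 on chromosome 7, had a median of 0.81. All 17 runs that exceeded it held genes of the neighbourhood. The lowest run outside, from Ly6m to Gpihbp1 on chromosome 15, had a median of -0.85. Erbb2 and its neighbour Grb7 lie on the same chromosome, and the sides overlapped in both. Erbb2 was 11.85, 10.52, 12.36, 10.56 and 12.83 in WT 5 and HOM 1 to HOM 4, within the low range of 9.63 to 12.92 (difference -0.24, limma adjusted p = 0.955). Its difference had the opposite sign with genotype in the model (0.55), among WT and HOM tumors alone (0.60), and without HOM 1 or HOM 3. Grb7 differed by 0.43 (limma adjusted p = 0.946), but by 0.07 without HET 1 and by -0.12 without HET 1 and HET 3.

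**Figure D4:**
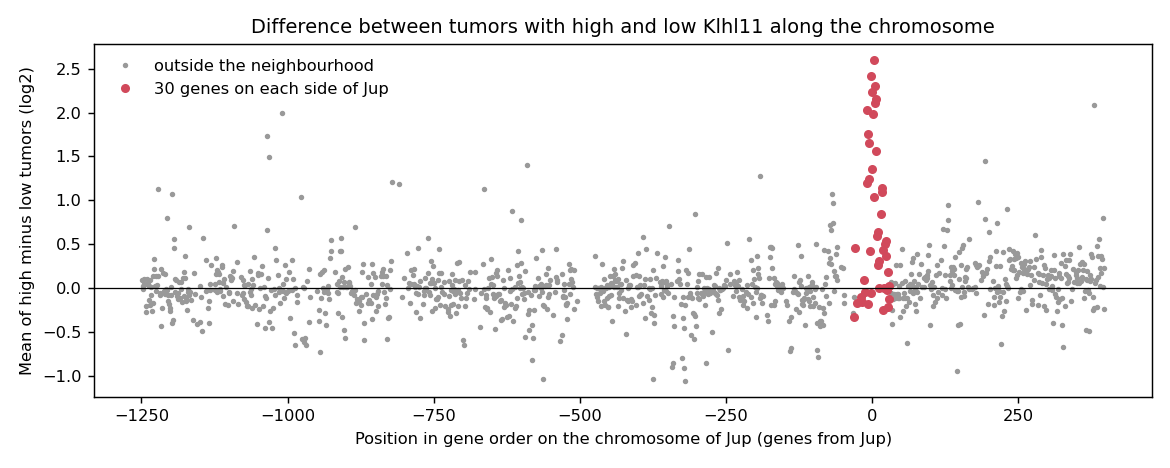
Difference between the means of the tumors with high and low Klhl11 (log2) for each gene on the chromosome of Jup, plotted by its position in gene order counted from Jup. The 30 genes on each side of Jup are in red and the peak of 2.60 is Klhl11, while the rest of the chromosome centres on 0.00.

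The same tumors compared within a genotype gave differences of like size. WT 5 exceeded the mean of the other WT tumors by 2.51 for Klhl11, 1.99 for Acly, 2.08 for Cnp and 1.47 for Jup. HOM 1 to HOM 4 exceeded HOM 5 by 3.05 for Klhl11, 2.67 for Acly, 1.77 for Cnp and 1.74 for Jup. Each of these sets a single tumor against 4, so no test was made.

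Outside the neighbourhood, 14199 genes were tested and few passed. With limma and Benjamini-Hochberg adjustment over all tested genes, 5 were higher in the high tumors and 0 lower. Over all tested genes, those around Jup included, the shares called were 0.0843% higher and 0% lower. At an unadjusted p under 0.05 the limma counts were 641 higher and 174 lower, together 815 of the 14199. A share of 0.05 of genes would have such a p with no difference at all, so these counts are a description. The 5 genes were Eif1-ps3, Snord61, Gm11413, Txnip and Meltf, on other chromosomes. Snord61 entered the test through the high tumors alone, so its call is a description.

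Eif1-ps3 differed most clearly. It is annotated on chromosome 2 as a pseudogene of Eif1, which encodes a translation initiation factor that acts in start codon choice. Its cluster read 11.10 in WT 5, 11.16 in HOM 1, 11.22 in HOM 2, 11.06 in HOM 3 and 10.98 in HOM 4. The low tumors lay between 9.44 and 10.14 with a median of 9.81. All 5 high tumors were above all 10 low tumors, with a difference of 1.34 ± 0.11 (SE) and a limma adjusted p of 1.68e-05. In the RefSeq gene order Eif1 itself lies next to Gast, among the neighbours of Jup. Eif1 had no cluster of its own in the annotation used here. Probes for a pseudogene can also bind its parent's transcript, so it is uncertain which copy this cluster read.

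The other called genes had different patterns. Snord61, a small nucleolar RNA gene on the X chromosome, was 6.38, 5.92, 6.27, 5.75 and 5.94 in WT 5 and HOM 1 to HOM 4 against 4.55 to 5.33 (median 5.01) in the low tumors (difference 1.10 ± 0.16 SE, limma adjusted p = 0.0079). All 10 low tumors were below their array's median, so Snord61 passed the filter on low values through the high tumors alone. The unfiltered limma fit called it as well. Gm11413, a gene model on chromosome 4 that lies outside the naming rule and is named because of its values, was 7.40 in WT 5, 9.76 in HOM 1, 9.40 in HOM 2, 8.36 in HOM 3 and 8.40 in HOM 4. Its low tumors ran from 4.63 to 6.77 (median 5.23), with 3 tumors, WT 3, HET 3 and HET 5, near the top. The difference was 3.15 ± 0.46 SE (limma adjusted p = 0.00885). Gm11413 was above the array median in only 3 of the 10 low tumors. Its low level may not be measurable, and the size of the difference is uncertain.

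Txnip encodes a thioredoxin-binding arrestin that restrains glucose uptake. It was 11.88, 12.17, 12.04, 12.13 and 11.89 in the high tumors and 10.77 to 11.67 (median 11.22) in the low ones. The sides did not overlap, and the difference of 0.84 ± 0.15 SE had a limma adjusted p of 0.0498. Meltf encodes melanotransferrin, an iron-binding protein of the cell surface. It was 10.10, 9.92, 8.59, 9.84 and 8.51 in WT 5, HOM 1, HOM 2, HOM 3 and HOM 4. The low tumors had a median of 6.79, but HET 5 reached 9.24, above HOM 2 and HOM 4. The difference was 2.52 ± 0.44 SE, with the same limma adjusted p of 0.0498. Both calls were lost in 20 of 27 other settings, so Txnip and Meltf stood at the edge of the threshold. All HET tumors were low, so a limma model with genotype rests on WT 5 against WT 1 to WT 4 and on HOM 5 against HOM 1 to HOM 4. It cannot tell whether genotype accounts for a lost call. In that model, with genotype included, Eif1-ps3 alone was still called. The differences of the others were then 3.01 for Gm11413 (adjusted p = 0.529), 0.86 for Txnip (adjusted p = 0.669), 2.94 for Meltf (adjusted p = 0.495) and 0.93 for Snord61 (adjusted p = 0.0822), close to those without it.

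**Figure D5:**
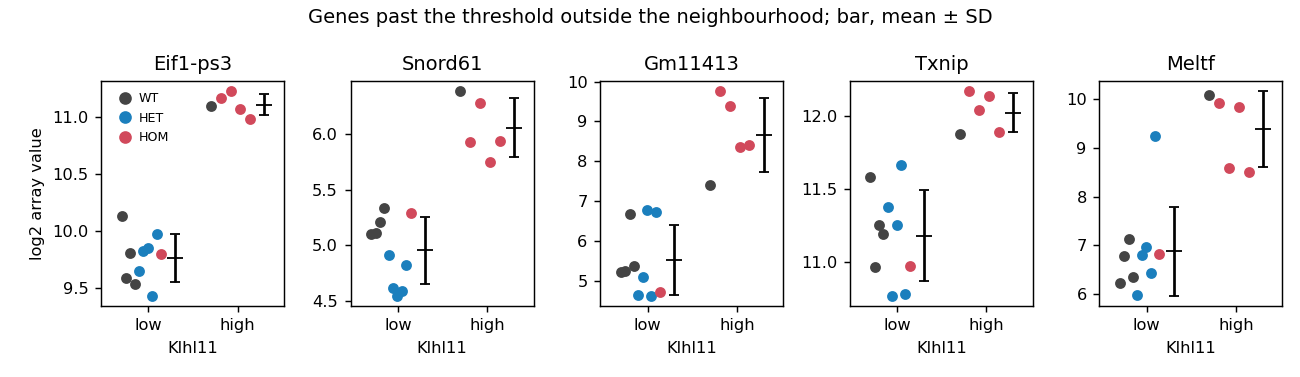
Log2 array values of genes outside the neighbourhood of Jup, with a point for each tumor coloured by genotype, for low and high Klhl11. Eif1-ps3 separates the sides with 10.98 to 11.22 against 9.44 to 10.14, while the low tumor HET 5 reaches the high tumors for Meltf.

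The genes next in order did not pass. Marchf3, a membrane ubiquitin ligase gene, was 8.16 to 8.43 in the high tumors and 7.02 to 8.0 in the low ones (0.74, limma adjusted p = 0.0624). Slc7a1, the cationic amino acid transporter gene, was the only one of the first 10 with a lower mean in the high tumors, at 8.32 to 8.75 against 8.93 to 10.03 (-0.80, limma adjusted p = 0.106). Osgin2 differed by 0.70 with an adjusted p of 0.129 in limma. Wnt5b, a ligand of non-canonical Wnt signalling, differed by 0.75, Tcp11l2 by 0.60 and Scml4 by 1.15, each with a limma adjusted p of 0.164. Separation with all high tumors lower was seen in 5 genes, 0.0351% of those tested, and all were on other chromosomes. The like count over all measured genes was 9, or 0.0406%.

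Ctnnb1 was 11.15 to 11.58 in the high tumors and 11.22 to 12.10 in the low ones, where the 5 HET tumors, at 11.22 to 11.66, were the lowest of the low tumors. Its difference of -0.43 had an unadjusted p of 0.0121 and an adjusted p of 0.789 in limma. Cdh1, the E-cadherin gene, differed by 0.44 (limma adjusted p = 0.909), but by 0.11 without HET 1, and Vim, a mesenchymal filament gene, by -0.14 (limma adjusted p = 0.949).

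In none of the 28 gene lists did limma call a member outside the neighbourhood of Jup. It called only 5 of all 14199 genes tested there, so lists of this size would rarely hold a called gene. The lack of calls is therefore no result about the lists. The counts of members with a higher mean that follow are descriptions and leave out the neighbours of Jup. Over all tested genes, 54.9% had a higher mean in the high tumors and the median difference was 0.02. Of 22 tested cullin 3 ligase genes other than Klhl11 and Klhl10, 14 had a higher mean, with a median difference of 0.04. Klhl24, another BTB-Kelch adaptor gene, differed by 0.34 (limma adjusted p = 0.836), Klhl18 by 0.25 (adjusted p = 0.873) and Nedd8, the modifier that activates cullins, by 0.15 (adjusted p = 0.869). Of 17 other fatty acid and sterol genes, the pathway that Acly feeds, 11 had a higher mean with a median of 0.10. The desaturase genes Fads2 and Fads1 differed by 0.80 (limma adjusted p = 0.865) and 0.56 (adjusted p = 0.869). Slc25a1, whose carrier exports the citrate that Acly uses, differed by -0.22 (limma adjusted p = 0.846). Of 13 desmosome genes other than Jup, 12 had a higher mean, with a median of 0.26. The plakophilin genes Pkp1, Pkp2 and Pkp3, whose products bind desmosomal cadherins as Jup does, differed by 1.04, 0.52 and 0.26 (limma adjusted p = 0.894, 0.894 and 0.908), and Pkp1 by 0.60 without HET 1. The other tested members of these 3 lists did not pass the test in either direction.

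Wnt targets and feedback genes, which report beta-catenin signalling, had a higher mean in 7 of 20 and a median of -0.24. Lgr6 differed by -0.94, Nkd1 by -0.97 and Wif1 by -0.75 (limma adjusted p = 0.84, 0.879 and 0.883). Nkd1 ranged from 5.58 to 10.72 in the low tumors and from 5.99 to 6.46 in the high ones. Of 17 milk and Stat5 response genes 14 had a higher mean, with a median of 0.96. Muc15, a milk fat globule mucin gene, was 11.03 to 12.41 against 6.45 to 11.64 (2.20, limma adjusted p = 0.78). Lalba, the alpha-lactalbumin gene, was 11.11 to 12.07 against 5.27 to 13.06 (1.87, limma adjusted p = 0.865, and 0.46 with genotype in the model), and Cel differed by 1.01 (adjusted p = 0.815). The mean of the milk list was 9.25 to 10.09 in the high tumors and 7.50 to 10.43 in the low ones, so the high tumors lay within the range of the low.

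Means of cell type markers also differed between the sides, and their part in the results was not tested. In bulk tissue fewer cells of a type and less RNA per cell cannot be told apart. All 18 epithelial markers outside the neighbourhood had a higher mean in the high tumors, with a median difference of 0.52. The mean of these with Krt19 was 10.51 to 10.77 in the high tumors and 7.64 in HET 1 to 10.88 in HET 5 among the low. The median of the low tumors was 10.34, so HET 1 widened the difference. Ehf differed by 1.28, Cldn3 by 0.93 and St14 by 0.78 (limma adjusted p = 0.791, 0.869 and 0.869), and Krt8 by 0.15 (adjusted p = 0.912, and -0.0056 with genotype in the model). Without HET 1 the difference of Ehf was 1.04. Among WT and HOM tumors alone that of Cldn3 was 0.43 and that of St14 0.42. Of 8 luminal progenitor markers 7 had a higher mean, with a median of 0.97. Kit was 10.43 to 11.81 against 8.51 to 11.12, and Cd14 was 11.20 to 12.01 against 9.52 to 11.87 (limma adjusted p = 0.79 and 0.78). Cyp24a1, the vitamin D hydroxylase gene, stood at 8.82 in HOM 3, and its difference of 0.84 was 0.20 without that tumor (limma adjusted p = 0.865 with it).

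Markers of other cell types went in both directions. A higher mean was seen in 1 of 13 endothelial markers (median -0.36), 1 of 14 neutrophil markers (-0.72), 0 of 9 skeletal muscle markers (-0.62), 5 of 15 fibroblast markers (-0.19), 2 of 7 B and plasma cell markers (-0.24) and 2 of 10 pan-leukocyte markers (-0.17). It was seen in 10 of 12 adipocyte markers (0.27), 5 of 8 Schwann cell markers (0.21), 9 of 14 macrophage markers (0.06) and 4 of 11 T and NK cell markers (-0.04). Of the interferon response genes 0 of 14 had a higher mean (-0.61). The endothelial receptor gene Kdr differed by -0.61, Robo4 by -0.57 and Egfl7 by -0.42 (limma adjusted p = 0.873, 0.895 and 0.904). Of the antiviral genes, Rsad2 differed by -0.90, Oasl1 by -0.96 and Ifit3 by -0.28 (limma adjusted p = 0.839, 0.869 and 0.865). Ly6g, a neutrophil surface gene, differed by -1.20 and Ngp by -0.85, while the granule gene Ltf, which mammary cells also express, differed by 1.26 (limma adjusted p = 0.869, 0.908 and 0.873). Interferon response means, with Dhx58, were 7.30 to 9.03 in the high tumors against 7.62 to 10.31 in the low ones. Neutrophil means were 7.11 to 8.87 against 6.44 to 10.65, and endothelial means 7.58 to 8.63 against 7.35 to 9.96. In WT 1 to WT 4 the neutrophil mean was 6.44 to 7.18. It was 7.69 to 10.65 in the HET tumors, all low in Klhl11, and 8.92 in HOM 5. The lower neutrophil values on the high side were thus not seen against WT 1 to WT 4. The muscle range on the low side reached 10.99 in HET 3 alone. Pan-leukocyte means were 8.71 to 9.81 against 8.24 to 10.34, and macrophage means 8.56 to 9.76 against 8.03 to 10.14. The pan-leukocyte mean was 8.24 to 9.62 in WT 1 to WT 4, 8.85 to 10.34 in the HET tumors and 9.53 in HOM 5.

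The medians of the remaining lists were 0.01 for 21 cell cycle genes, -0.10 for 17 glycolysis and hypoxia genes, -0.04 for 18 adherens junction genes, -0.12 for 18 genes at and around Erbb2 and -0.06 for 11 ErbB receptor and ligand genes. Those of 7 hormone-sensing luminal and 9 basal markers were 0.08 and 0.11. Mesenchymal genes had a median of -0.29 with 1 of 13 higher. The 4 tested type I keratins outside the neighbourhood had a median of 0.23, and the 14 type II keratins, on another chromosome, one of -0.05.

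Across genes outside the neighbourhood, the high tumors were more like each other than the low ones were. Pearson's r over the 14199 tested genes had a median of 0.955 (0.931 to 0.977) over the 10 pairs of high tumors and of 0.887 (0.75 to 0.944) over the 45 pairs of low ones. Pairs across the sides, 50 in number, had a median of 0.925 (0.819 to 0.959). These are correlations across genes, which are not independent replicates, and the low side mixes 3 genotypes where the high side is HOM but for WT 5.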

How the data were processed

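Total RNA of 15 tumors was hybridised to Affymetrix whole-transcript arrays, 1 array per tumor, and the number of arrays limits the precision. Per the submitters' processing notes, Transcriptome Analysis Console and Affymetrix Expression Console were used. For the normalization method and the array's genome build nothing is stated in those notes. The authors deposited log2 values for 41345 transcript clusters, which ran from 1.06 to 13.9, with array medians of 5.54 to 5.73. That the scale is log2 was taken from this range.

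Clusters were named by the platform annotation when they had exactly 1 gene symbol (23521; 1814 had several and 16010 no gene listed here), and 23328 were matched by Entrez ID to RefSeq GRCm38.p6, whose table served for names and gene order only. The brightest cluster per gene was kept (22180 genes). A gene was tested when it lay above the array median on at least 5 arrays (14243 genes). Since 5 tumors were high, a gene could pass through these alone. High and low tumors of all genotypes were compared with limma 3.58.1 in R 4.3.3 (lmFit, eBayes, two-sided, Benjamini-Hochberg, threshold 0.05). Clusters not well above background could not be marked, as no detection calls were used. Klhl11 was compared between genotypes with exact permutation tests.

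Members, gene lists and tests were chosen with earlier results of these data known. Named genes were 10 set genes, the 10 genes of smallest p outside the neighbourhood (gene models left out), the non-overlapping or most different neighbours and up to 3 members of 10 lists. A ranking of genes by correlation with Klhl11 was not reported, because the tumors fall into 2 separate sets. Alternatives were other filters, normalizations, cluster means, eBayes options, array weights, covariates, neighbourhood sizes, thresholds and leaving out tumors. The fit was tested on simulated data.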

Additional observations from a re-analysis of the deposited data

Results flagged for a closer look

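For 12 of 123 sets of values looked at, 1 tumor stood apart from the rest of its group by a Dixon test at the 95% level, which chance alone would flag in about 1 of 20 groups. Among the WT tumors, Klhl11 in WT 5 was apart at 10.52, and among the HOM tumors Klhl11 in HOM 5 was apart at 7.57. Both flags follow from the gap in Klhl11 that made the split, though they are counted among the 12. Acly in the low tumor WT 1 was 12.46, the nearest to the high side. Meltf in HET 5 was 9.24 and Slc7a1 in WT 2 was 10.03. HET 1 stood apart low in 4 epithelial genes, with Cdh1 at 8.38, Krt17 at 7.29, Pkp2 at 6.15 and St14 at 8.38. Among the high tumors HOM 3 stood apart, with Krt14 at 11.86, Cyp24a1 at 8.82 and Egfl7 at 7.09.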

How the results depend on the processing

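Outside the neighbourhood of Jup, limma called 5 genes higher and 0 lower. Among the 5 is Snord61, which entered the test through the high tumors alone. The number called higher was 3 with no filter on low values, 3 with median centring, 12 with array weights, 1 with genotype as a covariate, 8 with leukocyte and fibroblast means as covariates, 3 at an adjusted p under 0.01 and 3 without the tumors labelled WT 5 and HOM 5. The number called lower was 2 with array weights and 1 among WT and HOM tumors alone. The fit with genotype as a covariate rests on WT 5 and HOM 5, each against the other tumors of its genotype. Leaving out 1 tumor at a time gave 2 (without HOM 1) to 6 (without WT 3) genes higher and 0 to 1 (without WT 2) lower, with 3 higher without WT 2, WT 5, HET 2, HOM 3, HOM 4 or HOM 5. Eif1-ps3 was called in all 27 alternatives (limma adjusted p from 2.29e-07 to 0.0112). Snord61 was lost with genotype as a covariate (0.93, limma adjusted p = 0.0822) and among WT and HOM tumors alone (0.0783), and was below the filter at the 75th percentile. Gm11413 was lost with genotype as a covariate (3.01, adjusted p = 0.529) and without HOM 1 (2.88, adjusted p = 0.0501), against a difference of 3.15, and was likewise below that filter.

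The median difference of the 61 genes around Jup, 0.09, was 0.63 with 15 genes on each side, -0.028 with 60, 0.48 over tested neighbours only and 0.30 with keratin genes left out, and 0.05 to 0.15 with 1 tumor left out. It depends on how many flanking genes are counted. Klhl11 in HOM minus WT was 1.21 to 2.10 with 1 tumor left out, and 2.61 without the tumors labelled WT 5 and HOM 5. HOM minus HET was 1.65 to 2.54, and 2.54 without both. HET minus WT was -0.63 to 0.0625, and 0.0625 without WT 5 or without both. WT 5 and HOM 5 are the tumors whose Klhl11 goes against their genotype, so leaving them out selects on Klhl11 itself and no p is given. The causes of the other changes were not tested. Of 47 genes named outside the neighbourhood, 27 moved by over 1.5 times or changed sign in some alternative, and 0 of the 27 were called. For genes named singly, 7 of 1608 values had the opposite sign. These were Erbb2 with genotype as a covariate (0.55), without HOM 1 (0.0405), without HOM 3 (0.0294) and among WT and HOM tumors (0.60), with a range of -0.54 to 0.0405 over tumors left out singly, Grb7 without HET 1 and HET 3 (-0.12), Krt8 with genotype as a covariate (-0.0056) and Ngp among WT and HOM tumors (0.0654). Leaving out both WT 5 and HOM 5, or HET 1 and HET 3, and using WT and HOM tumors alone were added after the data were seen. No paired analysis was possible because the replicate numbers follow accession order and pair no tumors. No detection calls or scanner files were used, so how far low signals stand above background could not be checked.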

Other observations

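Of the 17824 clusters that name no gene or several, 12 (0.0673%) had all high tumors above all low tumors, 6 of them with a difference above 1, and 8 had all high tumors below. The largest difference was 2.28, for cluster 17256345, which has no gene listed here and was 8.59 to 9.30 in the high tumors and 6.56 to 7.09 in the low ones. Its number falls between those of the Krtap9-5 (17256336) and Gast (17256357) clusters, both neighbours of Jup. It may thus lie in that neighbourhood, but its position was not determined. Cluster 17486461, also with no gene listed here, differed by 1.87. A cluster shared by Dnajc7 and Nkiras2 was 10.66 in WT 5, 9.16 in HOM 1, 8.72 in HOM 2, 11.13 in HOM 3 and 10.49 in HOM 4, and at most 8.67 in the low tumors. The order of the high tumors was that of the Dnajc7 cluster, with HOM 3 highest and HOM 2 lowest, except that WT 5 and HOM 4 changed places.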
